A study of Homo sapiens with 26 samples.

Results

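The genes described here are 40 genes of the response to low oxygen and of glycolysis, taken by gene symbol from a deposited expression table of 63129 genes and followed through all 26 RNA sequencing libraries of the study. By role they are 4 regulators, 9 signalling, mitophagy and transcription targets, 6 target enzymes, 3 transporters, 10 enzymes of upper glycolysis or feeding into it, 6 of lower glycolysis and 2 that set the fate of pyruvate. The study compared cells derived to tolerate inhibition of BET bromodomain proteins, readers of acetylated histones at active genes, with their parental lines. A375 is an established human melanoma line with mutant BRAF, and NOMO-1 is an established human acute myeloid leukaemia line. Parental A375 cells, tolerant clone 1 and tolerant clone 4 were each sampled without treatment at 0 h, 6 h into DMSO, and 6 h into the BET bromodomain inhibitor CPI203 at 1 uM. Parental NOMO-1 cells and a tolerant NOMO-1 line were sampled 24 h into DMSO or 1 uM CPI203. Each of these 13 groups held 2 libraries. The titles name the derived cells resistant, and each A375 derivative is a single clone, so a value for a clone describes that clone. The labels do not say whether replicates were separate cultures or whether the derived cells were kept in inhibitor before sampling. P-values therefore measure the spread between these libraries, which may be technical.

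Cells sense oxygen through the prolyl hydroxylases of the EGLN family, which mark the alpha subunits of hypoxia-inducible factor (HIF), encoded by HIF1A and EPAS1, for VHL-dependent degradation. When oxygen is short the alpha subunits persist, pair with ARNT and bind short DNA motifs near genes for glucose uptake, glycolysis, lactate production, pH control, mitophagy and blood vessel growth. HIF activity is set mainly at the protein level, which RNA does not measure. Many of these genes also answer to MYC and to nutrient supply, and melanoma and leukaemia cells commonly use glycolysis even with oxygen present.

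Core promoter sequences are shown for the genes whose levels set the main contrasts below, because the short HIF motif can be read in them directly. They cover the 250 bases before the annotated start in RefSeq, build GRCh38.p14, 5′ to 3′ on the strand of the gene. Capitals mark every match to ACGTG or GCGTG on either strand, so also to CACGT and CACGC, and a CACGTG counts as 2 overlapping starts, 1 on each strand.
BNIP3 promoter, chr10:131981924-131982173, minus strand: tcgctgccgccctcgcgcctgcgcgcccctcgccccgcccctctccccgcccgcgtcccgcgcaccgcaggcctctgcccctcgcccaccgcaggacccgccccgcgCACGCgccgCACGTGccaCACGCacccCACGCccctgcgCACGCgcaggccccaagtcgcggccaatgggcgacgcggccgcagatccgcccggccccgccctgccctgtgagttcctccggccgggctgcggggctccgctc
LDHA promoter, chr11:18394313-18394562, plus strand: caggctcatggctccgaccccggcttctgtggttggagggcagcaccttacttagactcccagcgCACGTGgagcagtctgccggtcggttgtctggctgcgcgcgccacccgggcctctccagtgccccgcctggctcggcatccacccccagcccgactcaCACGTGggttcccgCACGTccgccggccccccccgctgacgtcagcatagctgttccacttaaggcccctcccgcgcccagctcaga
ENO2 promoter, chr12:6914330-6914579, plus strand: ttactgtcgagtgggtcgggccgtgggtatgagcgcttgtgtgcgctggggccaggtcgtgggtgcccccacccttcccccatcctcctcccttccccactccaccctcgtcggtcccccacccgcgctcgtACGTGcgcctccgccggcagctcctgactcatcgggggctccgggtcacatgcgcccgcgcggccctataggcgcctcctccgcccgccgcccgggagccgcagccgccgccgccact
PFKFB3 promoter, chr10:6144671-6144920, plus strand: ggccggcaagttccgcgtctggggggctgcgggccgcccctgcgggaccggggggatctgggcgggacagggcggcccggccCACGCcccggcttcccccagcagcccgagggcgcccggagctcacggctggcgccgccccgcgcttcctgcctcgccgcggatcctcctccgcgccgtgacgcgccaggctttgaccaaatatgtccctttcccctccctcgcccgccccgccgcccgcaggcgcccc
PFKFB4 promoter, chr3:48556804-48557053, minus strand: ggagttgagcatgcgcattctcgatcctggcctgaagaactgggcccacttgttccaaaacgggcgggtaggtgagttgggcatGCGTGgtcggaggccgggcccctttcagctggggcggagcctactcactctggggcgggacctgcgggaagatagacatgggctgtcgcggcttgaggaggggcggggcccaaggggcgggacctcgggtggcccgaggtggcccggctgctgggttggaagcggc
BNIP3 and LDHA, which stood far higher in the untreated clones, held 6 and 5 motif starts in this window, and LDHA held CACGTG 2 times. ENO2, also higher in both untreated clones, held 1 start, as did PFKFB3 and PFKFB4, which were lower. ADM and ANGPTL4, whose sequences are not shown and which were also far higher, held 1 start each. A link between the number of starts and the change was not tested. Of the 40 genes 36 matched a RefSeq promoter, and VEGFA, NDRG1, BNIP3L and SLC2A3 did not. A motif was present in 25 of the 36 (69.4%) and in 43.1% of all 27305 promoters of the same length. These promoters are rich in G and C (median 69.2%, against 58.0% over all), and among promoters at or above that median 61.6% held a motif. The ACGTG form alone was found in 16 of the 36 (44.4%) and in 18.7% of all promoters. For this form no comparison with promoters of like G and C content was made. The promoter of SLC2A1, whose RNA was also far higher in the clones, had no such letters in this window. Those of TPI1, PGAM1 and PFKP, also higher in both untreated clones, had none either. BHLHE40, which was lower in untreated clone 4, held 4 starts.

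Levels are FPKM, fragments scaled to transcript length and to all mapped fragments. FPKM summed to 501933 to 637916 per A375 library and to 417391 to 488682 per NOMO-1 library. Changes are given on the log2(FPKM + 1) scale, which understates the change of low genes, and passing means that limma gave an adjusted p under 0.05 over all genes tested. Of 9 melanoma markers 4 (MITF, SOX10, S100A1 and S100B) reached 1 FPKM in every A375 library, while TYR stayed below 0.1. In NOMO-1 7 of 10 myeloid markers did so. The 4 untreated clone libraries carry a parental entry in 1 label field, and the clone named in their titles was followed. Replicates lay farther apart in parental DMSO, clone 4 DMSO and clone 4 CPI203 cells (median absolute log2 difference 0.22, 0.293 and 0.231) than in the other A375 groups (0.0606 to 0.115). EGLN3 and CA12 stayed under 1 FPKM in every A375 library and were not tested there, which leaves 38 genes. The table has rows for processed pseudogenes of several of these genes, and the reads of a gene and its near-identical copies cannot be told apart. For BNIP3 the pseudogene rows summed to more FPKM than the gene itself in some libraries, up to 142%. On the genome 19 of the 40 genes overlap another row that reached 1 FPKM, among them HIF1A, VEGFA, CA9, PFKFB4, GAPDH and ENO2, and whether the libraries kept strand is not given in the sources used here.

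**Figure D1:**
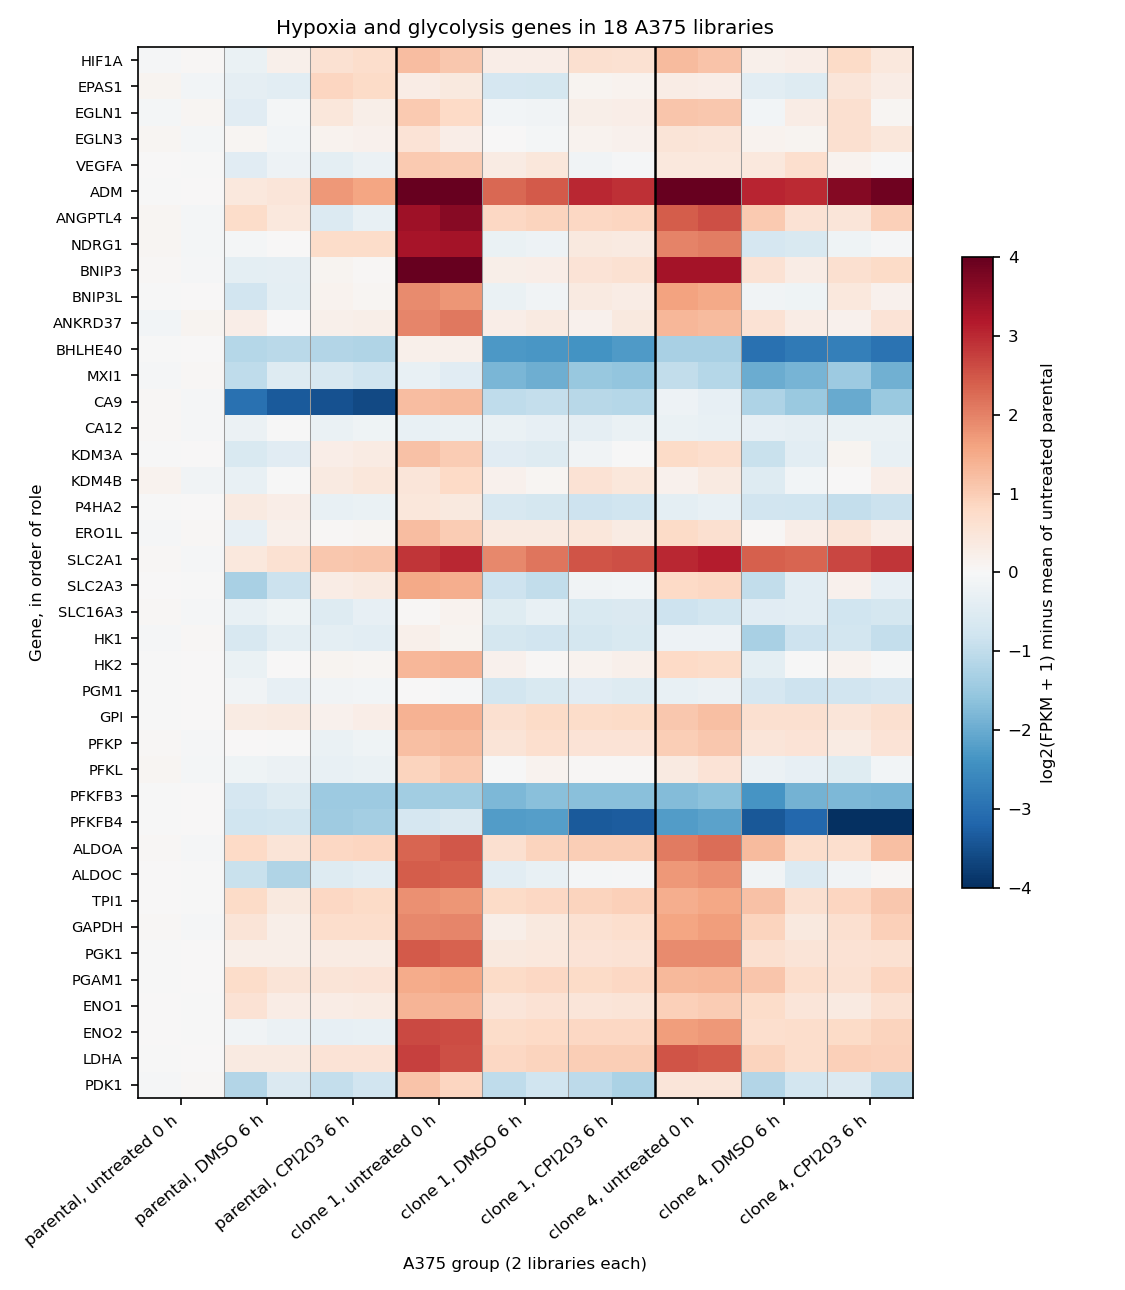
Level of each of the genes (rows, by role) in each of the 18 A375 libraries (columns), as log2(FPKM + 1) minus the gene's mean in untreated parental cells. The colour range is limited to -4 to 4. The untreated columns of clones 1 and 4 stand out from the 6 h columns of the same clones for most genes, while the untreated parental columns do not.

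Without treatment, both clones had far more RNA of most of these genes than parental cells, across regulators, targets and nearly the whole glycolytic pathway. Of the 38 genes tested, 31 were higher and 2 lower in clone 1, where 17.1% of all genes were higher and 31% lower. In clone 4, 27 were higher and 7 lower, against 20.7% and 30.4% of all genes. The median difference was 1.30 log2 units in clone 1 and 1.00 in clone 4, beside -0.12 and -0.08 over all genes. The 40 genes together made up 1.25% to 1.28% of summed FPKM in untreated parental cells, 4.49% to 4.52% in clone 1 and 3.44% to 3.54% in clone 4, and 1.45% to 1.87% in every other A375 library. Among all genes that passed, the share that was higher was 35.5% for clone 1, 50.4% after quantile normalization and 47.8% after median-ratio scaling. For clone 4 it was 40.4%, 51.8% and 49.1%. The counts among these genes were then 33 higher and 2 lower (quantile) and 32 and 2 (median-ratio) in clone 1, and 29 and 7, and 28 and 6, in clone 4.

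The RNA of the regulators was moderately higher in the untreated clones. HIF1A, the oxygen-regulated alpha subunit, stood at 70.5 and 76.0 FPKM in parental cells, at 174 and 154 in clone 1 and at 178 and 163 in clone 4. It was 1.15 log2 units higher in clone 1 (SE 0.14, adjusted p = 2.03e-05) and 1.21 higher in clone 4 (SE 0.14, adjusted p = 1.15e-05). EGLN1, the main oxygen-sensing prolyl hydroxylase and itself a HIF target, was at 14.8 and 16.7 FPKM in parental cells, 33.8 and 28.0 in clone 1 and 35.4 and 34.4 in clone 4. Both genes were thus higher in each clone library than in each parental library. EPAS1, which encodes the second HIF alpha subunit, was low throughout, at 1.16 and 0.827 FPKM in parental cells, 1.45 and 1.63 in clone 1 and 1.43 and 1.41 in clone 4. It passed in both clones (0.35 and 0.28, SE 0.10, adjusted p = 0.0107 and 0.0297), and the call was lost in both without parental replicate 2, where the values were 0.23 and 0.16. It was also lost without clone 1 replicate 2 (0.30), and without clone 4 replicate 1 (0.28) or 2 (0.29). EGLN3, an inducible member of the same family, was at 0.164 and 0.0466 FPKM in untreated parental cells, 0.612 and 0.335 in clone 1 and 0.588 and 0.551 in clone 4. After DMSO it was at 0.153 and 0.0331, 0.108 and 0.0447, and 0.221 and 0.186 FPKM in the same order, and after CPI203 at 0.221 and 0.236, 0.221 and 0.231, and 0.738 and 0.504. It was too low for a test.

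Of the 9 signalling, mitophagy and transcription targets, 7 were higher in each untreated clone. ADM, which encodes the vasodilator peptide adrenomedullin, was at 2.4 and 2.51 FPKM in parental cells, 53.9 and 60.7 in clone 1 and 69.3 and 71.9 in clone 4. Its differences of 4.07 and 4.37 (SE 0.10, adjusted p = 7.15e-12 and 3.98e-12) were the largest among the 38 genes. BNIP3, a mitophagy receptor of the outer mitochondrial membrane, was at 32.1 and 30.1 FPKM in parental cells, 533 and 522 in clone 1 and 324 and 319 in clone 4, or 17.0-fold and 10.3-fold higher. With its pseudogene rows added the ratios were 16.2 and 10.0. The libraries of the clones lay far above the parental ones for both genes. NDRG1, a stress-induced gene of membrane traffic, was at 53.8 and 49.2 FPKM in parental cells, 513 and 530 in clone 1 and 208 and 216 in clone 4. ANGPTL4, a secreted inhibitor of lipoprotein lipase, was at 6.15 and 5.5 FPKM, 70.0 and 84.8, and 35.3 and 39.5 in the same order. NDRG1 was 3.32 log2 units higher in clone 1 (SE 0.08, adjusted p = 5.57e-12) and 2.02 in clone 4, and ANGPTL4 3.52 and 2.49 higher. For NDRG1 and ANGPTL4 clone 1 stood above clone 4, and clone 4 above parental cells, in every untreated library. The other members that were higher in both were BNIP3L, a second mitophagy receptor, ANKRD37, an ankyrin repeat protein, and VEGFA, the vascular growth factor. VEGFA was at 17.4 and 16.9 FPKM in parental cells, 36.7 and 35.3 in clone 1 and 23.2 and 23.3 in clone 4.

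A pair of targets that encode repressors behaved otherwise. BHLHE40, a circadian and hypoxic repressor, was at 43.4 and 43.7 FPKM in untreated parental cells, 50.6 and 49.9 in clone 1 and 17.0 and 17.1 in clone 4. It was 1.30 log2 units lower in clone 4 (SE 0.09, adjusted p = 7.98e-08) and did not pass in clone 1. MXI1, a MYC antagonist, was at 36.4 and 38.3 FPKM, 30.5 and 26.8, and 18.5 and 16.3 in the same order, and was lower in clone 4 by 1.06 (SE 0.17, adjusted p = 0.000167). Among target enzymes, 5 of 5 tested were higher in clone 1, but in clone 4 only KDM3A and ERO1L were higher, while P4HA2 was lower. KDM3A encodes a histone demethylase, ERO1L an oxidase for disulfide bonds in the endoplasmic reticulum, and P4HA2 a collagen prolyl hydroxylase. CA9, the cell-surface carbonic anhydrase often used as a hypoxia marker, was at 18.9 and 18 FPKM in parental cells, 45.2 and 45.6 in clone 1 and 16.0 and 14.4 in clone 4. It was higher in clone 1 by 1.25 (SE 0.17, adjusted p = 4.23e-05) and did not pass in clone 4. KDM4B, a histone demethylase, was the remaining enzyme, and CA12, a relative of CA9, did not exceed 0.314 FPKM in A375 cells.

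**Figure D2:**
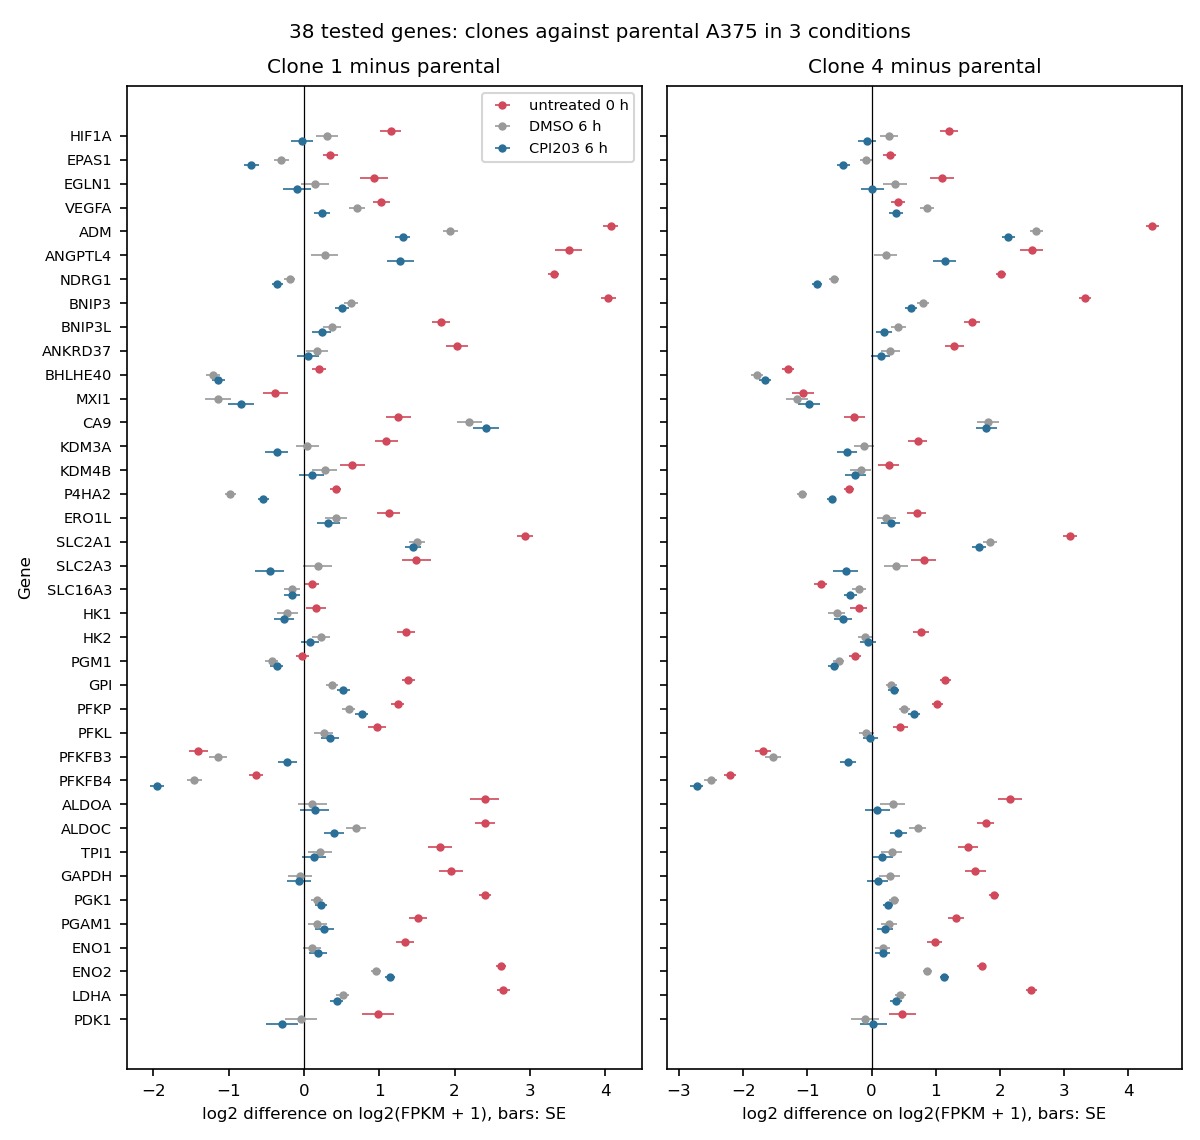
Clone minus parental A375 difference on the log2(FPKM + 1) scale, with SE bars, for the 38 genes tested, for clone 1 and clone 4, without treatment at 0 h, in DMSO at 6 h and in CPI203 at 6 h. The untreated points run up to 4.07 for ADM in clone 1 and 4.37 in clone 4, while most points at 6 h lie near 0, and PFKFB4 lies to the left throughout.

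Of 3 transporters 2 were higher in each untreated clone, as were 6 of 10 members of upper glycolysis. In upper glycolysis 2 were lower in clone 1 and 3 in clone 4. SLC2A1, the basal glucose transporter, was at 26.4 and 24.8 FPKM in untreated parental cells, 192 and 213 in clone 1 and 214 and 236 in clone 4. That was 2.93 and 3.09 log2 units higher (SE 0.11, adjusted p = 1.85e-10 and 1.1e-10), with no overlap of libraries. SLC2A3, a high-affinity glucose transporter, was also higher in both clones, at 67.5 and 64.1 and at 40.4 and 41.0 FPKM against 23.0 and 22.6. SLC16A3, the lactate exporter, was at 6.52 and 6.15 FPKM in parental cells and 6.57 and 7.17 in clone 1, and was lower in clone 4 at 3.11 and 3.37. HK2, the inducible hexokinase, was at 17.0 and 17.4 FPKM in parental cells, 44.7 and 46.2 in clone 1 and 30.3 and 29.6 in clone 4, while HK1, the constitutive form, passed in neither. GPI, PFKP, PFKL, ALDOA and ALDOC, which carry glucose phosphate on to the aldolase step, were higher in both clones. PGM1, which links glycogen to glycolysis, passed as lower in clone 4, and lost that call after median-ratio scaling (-0.15), without either parental replicate (-0.28 and -0.23) and without clone 4 replicate 1 (-0.23). ALDOC went from 36.9 and 36.3 FPKM in parental cells to 200 and 198 in clone 1 and 123 and 133 in clone 4.

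PFKFB3 and PFKFB4, bifunctional enzymes that set the main allosteric activator of phosphofructokinase, were the members of upper glycolysis that were lower in both clones. PFKFB4 was at 131 and 136 FPKM in untreated parental cells, 83.5 and 88.2 in clone 1 and 27.3 and 29.3 in clone 4. It was lower by 0.63 in clone 1 and by 2.20 in clone 4 (log2 differences -0.63 and -2.20, SE 0.10, adjusted p = 0.000121 and 8.91e-10). PFKFB3 was at 69.4 and 70.3 FPKM, 25.8 and 25.8, and 20.1 and 21.6 in the same order. These differences were -1.4 and -1.70 (SE 0.12, adjusted p = 9.38e-07 and 1.4e-07). Both genes are HIF targets in many cell types, yet each clone library lay below each parental one.

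All 6 members of lower glycolysis were higher in both untreated clones. GAPDH was at 2201 and 2083 FPKM in parental cells, 8192 and 8344 in clone 1 and 6362 and 6795 in clone 4. PGK1, the first ATP-forming enzyme, was at 458 and 468, 2542 and 2367, and 1728 and 1736 FPKM. Rows of GAPDH pseudogenes summed to a mean of 2060 FPKM in parental cells, 7920 in clone 1 and 6320 in clone 4, and the ratio to parental cells was the same with them added, 3.86 and 3.07. ENO2, the enolase of neurons and many tumours, was at 36.0 and 35.5 FPKM in parental cells, 228 and 221 in clone 1 and 117 and 122 in clone 4. LDHA, which turns pyruvate into lactate, was at 392 and 397 FPKM in parental cells, 2618 and 2345 in clone 1 and 2262 and 2176 in clone 4. Its differences were 2.65 and 2.49 (SE 0.09, adjusted p = 9.87e-11 and 1.5e-10). PDK1, the kinase that limits the use of pyruvate in mitochondria by inhibiting pyruvate dehydrogenase, was at 9.44 and 10.3 FPKM, 22.7 and 18.5, and 14.1 and 14.2. It passed in clone 1 (0.99, SE 0.22, adjusted p = 0.00205) and not in clone 4. TPI1, PGAM1 and ENO1, the remaining steps, were between 0.98 and 1.80 log2 units higher.

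**Figure D3:**
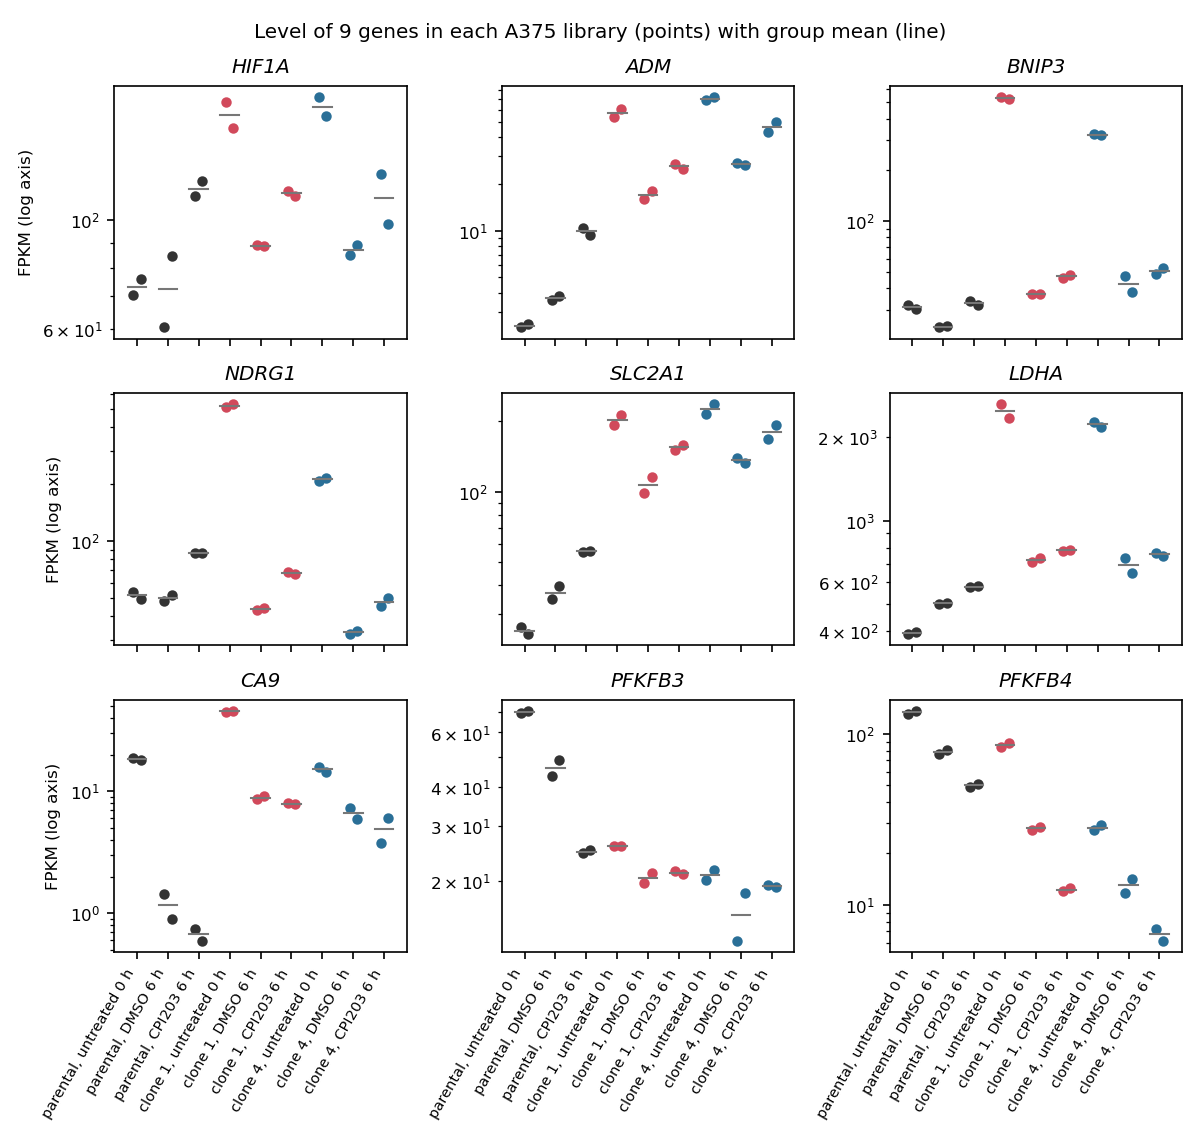
FPKM of 9 of the genes in each A375 library (points) with the group mean (line), on a log axis, for parental cells, clone 1 and clone 4 without treatment, in DMSO and in CPI203. ADM, BNIP3, NDRG1, SLC2A1 and LDHA are highest in the untreated clones. CA9 in parental cells is at 18.9 and 18 untreated and at most 1.45 after 6 h, and PFKFB3 and PFKFB4 are highest in untreated parental cells.

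Between the untreated sample and 6 h of DMSO, both clones lost most of this excess, whereas parental cells showed a mixed and smaller shift. The untreated clone libraries enter these comparisons as well as the previous ones, so the 2 sets of values are not independent. No DMSO sample at 0 h and no untreated sample at 6 h was analysed here. Elapsed time, DMSO and any difference in culture, harvest or library preparation between the 0 h and 6 h samples therefore cannot be told apart. Rose and fell describe a difference between separate libraries. In clone 1 all 38 genes tested fell and none rose, against 12.9% and 30.3% of all genes (43.2% changed either way). In clone 4, 36 fell and SLC16A3 alone rose, against 13% and 28.3% of all genes (41.3% either way), and VEGFA did not pass. In parental cells 11 rose and 13 fell, against 12.2% and 10.3%. The median change was -1.38 in clone 1, -0.97 in clone 4 and -0.17 in parental cells, beside 0.15, 0.11 and 0.00 over all genes.

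BNIP3 went from 533 and 522 to 37.1 and 37.3 FPKM in clone 1 and from 324 and 319 to 47.3 and 38 in clone 4, a fall by 3.79 and by 2.89 on the log2 scale (SE 0.09, adjusted p = 5.22e-11 and 1.45e-09). In parental cells it went from 32.1 and 30.1 to 23.7 and 23.9 FPKM. NDRG1 fell from 513 and 530 to 43.1 and 44.1 FPKM in clone 1 and from 208 and 216 to 32.2 and 33.4 in clone 4. In both clones it ended below the parental DMSO values of 48.3 and 51.5, where the parental change did not pass. Against parental DMSO cells NDRG1 passed as lower in clone 4 (-0.59, SE 0.08) and did not pass in clone 1 (-0.19, SE 0.08). ANGPTL4 fell from 70.0 and 84.8 to 11 and 11.7 FPKM in clone 1 and from 35.3 and 39.5 to 13.0 and 9.18 in clone 4. In parental cells ANGPTL4 went the other way, from 6.15 and 5.5 to 10.4 and 8.19 FPKM. BNIP3L fell from 95.1 and 88.8 to 27.4 and 26.7 FPKM in clone 4, by 1.73 (SE 0.12, adjusted p = 7.64e-07). ADM kept part of its excess, at 16.0 and 18.1 FPKM in clone 1 and 27.3 and 26.4 in clone 4 against 3.6 and 3.8 in parental cells. BHLHE40 fell in all 3 populations, to 19.0 and 20.2 FPKM in parental cells, 8.08 and 7.79 in clone 1 and 4.69 and 5.31 in clone 4. VEGFA was at 12.4 and 14.9, 22 and 23.7, and 23.3 and 27.7 FPKM after DMSO, and its fall passed in clone 1 and in neither other population, though the difference between clone 1 and parental cells did not pass.

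Among regulators, HIF1A fell in clone 1 to 89.1 and 88.6 FPKM and in clone 4 to 84.9 and 89.1, by 0.87 and 0.97 on the log2 scale (SE 0.14, adjusted p = 0.000328 and 0.000203). It was at 60.6 and 84.5 FPKM in parental DMSO cells, a range that spans the untreated parental values. EGLN1 fell to 14.4 and 14.3 FPKM and to 14.6 and 19.4 in the clones. EPAS1 went to 0.562 and 0.486 FPKM in parental cells, 0.238 and 0.233 in clone 1 and 0.482 and 0.395 in clone 4. All 6 EPAS1 values after DMSO were below every untreated value. Because EPAS1 reached 1 FPKM in untreated and CPI203 groups only and entered the test through them, this fall is given no weight. The counts of genes that fell include it, as does the count of negative differences for clone 1 below.

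The strongest change in parental cells was in CA9, which fell from 18.9 and 18 to 1.45 and 0.895 FPKM, by 3.18 on the log2 scale (SE 0.17, adjusted p = 5.1e-07). It fell to 8.58 and 9.15 FPKM in clone 1 and to 7.29 and 5.88 in clone 4, so both clones ended above parental cells. SLC2A3 fell from 23.0 and 22.6 to 8.59 and 12 FPKM in parental cells and from 67.5 and 64.1 to 12.4 and 10.9 in clone 1. ALDOC fell from 36.9 and 36.3 to 19.1 and 15.3 FPKM in parental cells, to 27.0 and 29.5 in clone 1 and to 33.4 and 24.8 in clone 4. In all 3 populations ALDOC passed, with changes of -1.06, -2.77 and -2.12 (SE 0.13). PFKFB4 fell in parental cells to 76.5 and 80.3 FPKM, by 0.76 (SE 0.10, adjusted p = 0.000188). PDK1 went from 9.44 and 10.3 to 3.86 and 6.31 FPKM in parental cells, and the call (adjusted p = 0.0128) was lost without replicate 1 or 2 of the untreated cells or replicate 1 of DMSO. HK2 was at 14.3 and 17.4 FPKM in parental DMSO cells, and fell to 19.5 and 17.7 in clone 1 and 12.8 and 16.9 in clone 4. PDK1 fell to 4.33 and 5.28 FPKM in clone 1 and to 3.79 and 5.48 in clone 4.

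Of the 6 lower glycolytic enzymes 4 rose in parental cells, whereas all 6 fell in each clone. In parental cells TPI1, PGK1, PGAM1 and ENO1 rose, with PGAM1 going from 88.4 and 89.0 to 149 and 127 FPKM. GAPDH and ENO2 did not pass there, and ENO2 was at 36.0 and 35.5 FPKM before and 32.2 and 30 after. GAPDH went from 2201 and 2083 to 3050 and 2496 FPKM in parental cells, from 8192 and 8344 to 2520 and 2789 in clone 1, and from 6362 and 6795 to 4002 and 2816 in clone 4. The 6 DMSO values of GAPDH overlapped between populations. LDHA rose from 392 and 397 to 502 and 506 FPKM in parental cells (0.35, SE 0.09, adjusted p = 0.0132), and fell to 708 and 732 in clone 1 and to 736 and 646 in clone 4. The falls were 1.78 and 1.69 (SE 0.09, adjusted p = 2.54e-08 and 7.12e-08), and every clone value remained above every parental value at that time. SLC2A1 likewise rose in parental cells, to 34.8 and 39.5 FPKM, and fell in the clones to 98.8 and 116 and to 139 and 133.

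**Figure D4:**
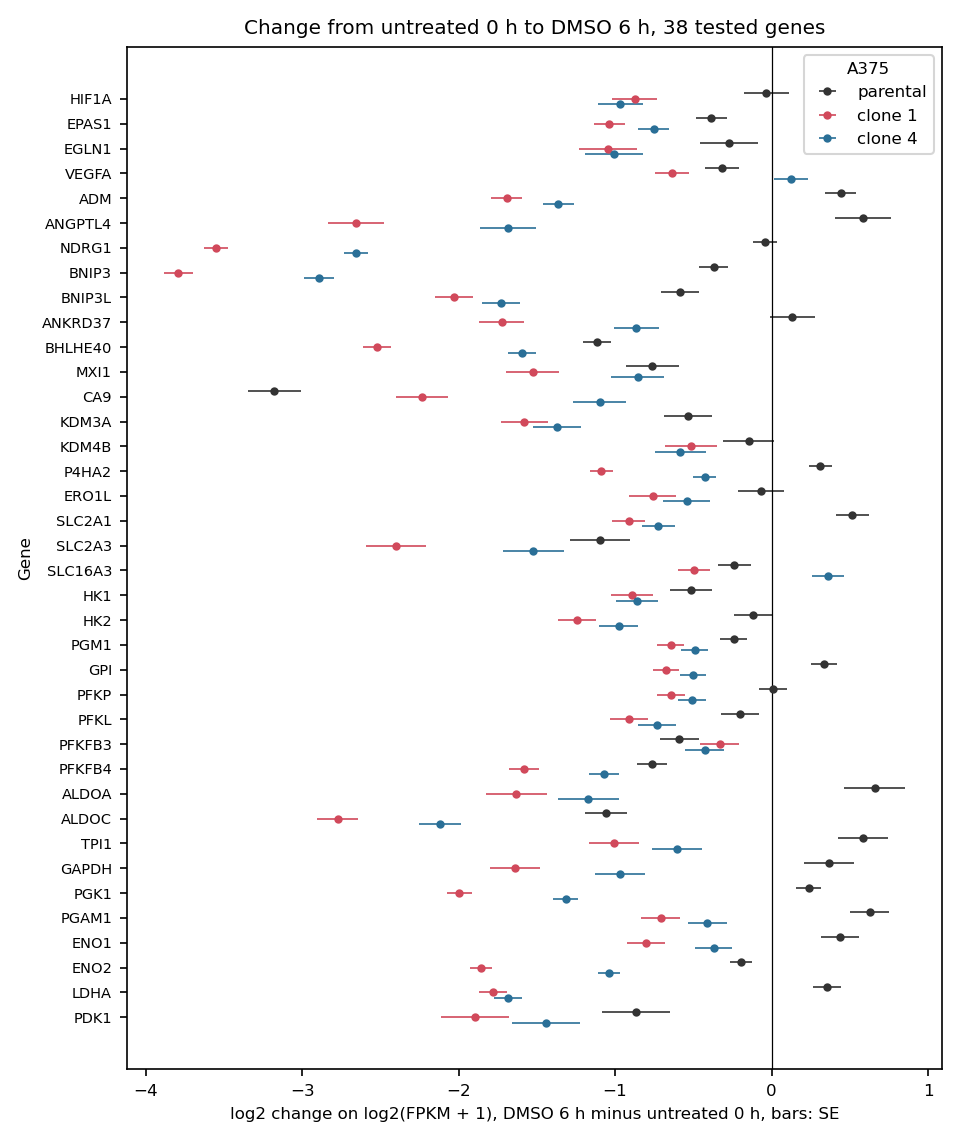
Change from untreated 0 h to DMSO 6 h on the log2(FPKM + 1) scale, with SE bars, for the 38 genes tested, in parental A375 cells, clone 1 and clone 4. Clone 1 points lie left of 0 for every gene, down to -3.79 for BNIP3, clone 4 points are right of 0 for VEGFA and SLC16A3 alone, and parental points lie on both sides.

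The difference between a clone and parental cells in this change was tested directly. For clone 1 it was negative and passed for 31 genes and positive for CA9 alone, against 5.98% and 15.5% of all genes. For clone 4 it was negative for 24 and positive for CA9 and SLC16A3, against 6.03% and 14.7%. In clone 1 the most negative differences were in NDRG1 (-3.51, SE 0.11, adjusted p = 3.56e-09), BNIP3 (-3.42, SE 0.13, adjusted p = 1.36e-08) and ANGPTL4 (-3.24, SE 0.25, adjusted p = 4.61e-06). ALDOA, PGK1 and LDHA followed at -2.29, -2.23 and -2.13. In clone 4 NDRG1, BNIP3 and ANGPTL4 were at -2.61, -2.52 and -2.27, and LDHA and ALDOA at -2.04 and -1.83. For CA9 the difference was 0.94 (adjusted p = 0.0134) in clone 1 and 2.08 (SE 0.24, adjusted p = 7.43e-05) in clone 4, its fall being larger in parental cells. The CA9 call in clone 1 was lost without parental untreated replicate 1. PFKFB3 did not pass, at 0.26 and 0.16 (SE 0.18), and PFKFB4 passed in clone 1, at -0.82, but not in clone 4, at -0.31 (SE 0.14).

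A single library weighed on the parental change. Of the 24 parental calls from untreated to DMSO, 10 were left without untreated replicate 1 or without untreated replicate 2, 11 without DMSO replicate 1, and 7 with only the compared libraries in the fit. The share of higher genes among all that passed was 70.1% in clone 1, 52.4% after quantile normalization and 50.4% after median-ratio scaling, and 68.6%, 51.4% and 50.2% in clone 4. For the difference it was 72.2%, 53.2% and 53.9% in clone 1 and 70.9%, 54.2% and 56.1% in clone 4. ENO1 lost its call from untreated to DMSO after quantile normalization, at -0.08 in clone 1 and -0.07 in clone 4. The counts were then 37 and 35 falling genes in the clones, with none rising. With 3 libraries that stand apart left out (replicate 1 of DMSO in parental cells and in clone 4, and replicate 2 of CPI203 in clone 4), 12 rose and 15 fell in parental cells, 38 fell in clone 1, and 2 rose and 34 fell in clone 4.

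Most of these genes were also lower in the clones after 6 h of CPI203 than without treatment, a comparison that uses the same untreated libraries as the one with DMSO. In clone 1, 35 of 38 genes fell against the untreated sample and none rose, where 9.94% of all genes fell and 22.4% rose. In clone 4, 32 fell and none rose, against 5.21% and 11.5%. SLC2A1 passed in clone 1, at 150 and 159 FPKM, but not in clone 4, at 168 and 193, where EPAS1, KDM4B, ERO1L, SLC16A3 and PFKFB3 did not pass either. In parental cells 12 rose and 12 fell, against 20.3% and 24% of all genes (44.3% either way). BNIP3 was at 46.3 and 48.1 FPKM in clone 1 with CPI203 and at 48.7 and 53.1 in clone 4, falls by 3.45 and 2.64 (SE 0.09, adjusted p = 1.57e-10 and 1.27e-08). NDRG1 was at 68.3 and 66.6 FPKM and 45.4 and 50.1, LDHA at 781 and 787 and at 767 and 746, and ALDOC at 34.8 and 35.2 and at 32.9 and 38.2. These values lay below every untreated value of the same clone. PFKFB4 fell further than with DMSO, to 12 and 12.5 FPKM in clone 1 and 7.27 and 6.18 in clone 4, with changes of -2.72 and -1.93 (SE 0.10). GAPDH was at 3273 and 3411 FPKM in clone 1 and 3373 and 4146 in clone 4, and the call in clone 1 was lost after quantile normalization. EGLN1 fell to 18.5 and 18.9 FPKM in clone 1 and to 24.8 and 16.5 in clone 4, and VEGFA to 15.5 and 16.7 and to 19 and 17. HK2 fell to 19.2 and 20.1 FPKM in clone 1 and to 19 and 16.9 in clone 4, and PDK1 to 4.28 and 3.55 and to 6.3 and 4.14. With only the compared libraries in the fit, 17 members fell in clone 4. The share of higher genes among all that passed was 69.3% in clone 1, 52.1% after quantile normalization and 47.3% after median-ratio scaling, and 68.8%, 54.3% and 47.5% in clone 4.

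In parental cells with CPI203, CA9 was at 0.743 and 0.595 FPKM, down by 3.55 from the untreated level (SE 0.17, adjusted p = 1.16e-08). PFKFB3 fell from 69.4 and 70.3 to 24.6 and 25.0 FPKM and PFKFB4 from 131 and 136 to 48.9 and 51.1, by 1.46 and 1.4. ADM rose from 2.4 and 2.51 to 10.4 and 9.36 FPKM (1.65, SE 0.10, adjusted p = 8.34e-08). SLC2A1 rose to 55.6 and 56.0 FPKM, by 1.09 (SE 0.11, adjusted p = 4.19e-06). HIF1A rose to 112 and 120 FPKM and EPAS1 to 2.6 and 2.41. In the clones with CPI203 HIF1A was at 115 and 112 and at 124 and 98.3 FPKM, and fell from the untreated level. The clone 1 call was lost without untreated replicate 1 or either CPI203 replicate, and the clone 4 call without untreated replicate 1, without CPI203 replicate 2 or with the compared libraries alone. BHLHE40 fell to 18.6 and 18.4 FPKM, close to its DMSO level. VEGFA was at 12.7 and 14.3 FPKM, PDK1 at 4.61 and 5.42, HK2 at 18.8 and 18.4 and BNIP3 at 33.9 and 32. GAPDH rose to 3484 and 3509 FPKM (0.71, SE 0.16, adjusted p = 0.003) and LDHA to 578 and 580 (0.55, SE 0.09, adjusted p = 0.000259).

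At 6 h the clones and parental cells differed in fewer of these genes. The median difference in DMSO was 0.18 log2 units in clone 1 and 0.28 in clone 4. In clone 1, however, more members were lower than without treatment, and some genes differed by more. BHLHE40 there went from 0.20 untreated to -1.20 in DMSO, P4HA2 from 0.42 to -0.98 and CA9 from 1.25 to 2.19. In DMSO 11 members were higher and 7 lower in clone 1, where 11.7% of all genes were higher and 13.5% lower. In clone 4 the counts were 12 and 8, against 15.4% and 16%. Of the 6 lower glycolytic enzymes ENO2 passed in clone 1, and ENO2 and PGK1 in clone 4. ENO2 was at 32.2 and 30 FPKM in parental DMSO cells, 60.3 and 62.3 in clone 1 and 57.0 and 58.2 in clone 4. SLC2A1 stayed 1.51 and 1.85 higher (SE 0.11, adjusted p = 2.88e-07 and 3.14e-08), and ADM 1.94 and 2.57 higher (SE 0.10, adjusted p = 1.42e-08 and 8.73e-10). CA9 was 2.19 and 1.81 higher (SE 0.17, adjusted p = 6.12e-07 and 2.92e-06). PFKFB4 stayed lower, at 27.6 and 28.4 FPKM in clone 1 and 11.8 and 14.2 in clone 4 against 76.5 and 80.3. BHLHE40 was lower by 1.2 and 1.78 (SE 0.09), MXI1 by 1.14 and 1.16 (SE 0.17), and PFKFB3 by 1.14 and 1.53 (SE 0.12). MXI1 was at 18 and 26 FPKM in parental cells, 9.7 and 8.85 in clone 1 and 8.75 and 9.57 in clone 4. HIF1A and EGLN1 passed in neither clone. EPAS1, under 1 FPKM in all of these libraries, was lower in clone 1 (log2 difference -0.30, SE 0.10, adjusted p = 0.041) and did not pass in clone 4. It entered the test through untreated and CPI203 libraries, so this call is given no weight. The count of lower genes in clone 1 includes it. With only the compared libraries in the fit, 9 of the 20 calls in clone 4 were left.

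Under CPI203 the picture between clones and parental cells was similar, with 11 members higher and 7 lower in clone 1 (12.3% and 12.3% of all genes) and 12 higher and 10 lower in clone 4 (14.5% and 15.1%, or 29.7% either way). ADM was at 26.9 and 25.1 FPKM in clone 1 and 43.3 and 50 in clone 4 against 10.4 and 9.36, and SLC2A1 at 150 and 159 and at 168 and 193 against 55.6 and 56.0. ENO2 was at 64.7 and 64.4 and at 61.7 and 66.7 FPKM against 28.3 and 29.1, a difference of 1.14 and 1.13 (SE 0.07, adjusted p = 1.16e-07 and 9.99e-08). CA9 was at 7.97 and 7.85 FPKM in clone 1 and 3.76 and 5.99 in clone 4. EPAS1 was lower in clone 1 and clone 4 than in parental cells (log2 differences -0.70 and -0.44, SE 0.10, adjusted p = 0.000201 and 0.00477). ANGPTL4, which did not pass in DMSO, was at 3.68 and 4.5 FPKM in parental cells, 11.1 and 11.5 in clone 1 and 8.62 and 12.1 in clone 4. That was 1.28 and 1.14 higher (SE 0.18, adjusted p = 0.000183 and 0.000377). PFKFB4 was lower by 1.95 and 2.73 (SE 0.10, adjusted p = 1.3e-08 and 5.53e-10). BHLHE40, at 7.58 and 8.18 FPKM in clone 1 and 5.66 and 4.76 in clone 4, was lower by 1.14 and 1.66. In clone 1, 31 members passed when only the compared libraries were in the fit, and 29 without the 3 libraries that stand apart.

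CPI203 itself, set against DMSO at the same time, raised both glucose transporters and some targets in each population and lowered other targets. HIF1A and EGLN1 rose in parental cells and passed in neither clone. The difference between a clone and parental cells in this change did not pass for either gene. It was -0.33 and -0.35 (SE 0.20) for HIF1A and -0.25 and -0.35 (SE 0.26) for EGLN1 in clones 1 and 4. Few of the glycolytic enzymes among these genes passed. In parental cells 12 of 38 genes rose and 4 fell (42.1% either way), against 15% and 21.4% of all genes (36.4% either way). In clone 1, 7 rose and 2 fell (23.7% either way), against 8.41% and 13.6% of all genes (22% either way). In clone 4, 7 rose and 3 fell (26.3% either way), against 8.86% and 14.8% (23.6% either way). In the clones the either-way shares were thus close to those of all genes. HIF1A rose in parental cells from 60.6 and 84.5 to 112 and 120 FPKM (0.69, SE 0.14, adjusted p = 0.00223), EGLN1 from 11.2 and 14.7 to 21.7 and 18.5, and EPAS1 from 0.562 and 0.486 to 2.6 and 2.41. The EGLN1 call was lost without parental DMSO replicate 1 (0.42), without parental CPI203 replicate 1 (0.49), with the compared libraries alone and with no filter. EPAS1 also rose in both clones, from 0.238 and 0.233 to 1.13 and 1.19 FPKM and from 0.482 and 0.395 to 1.75 and 1.42. Every CPI203 value of EPAS1 exceeded every DMSO value. However, no DMSO library of A375 reached 1 FPKM for EPAS1, which entered the test through untreated and CPI203 libraries. Its rise is therefore given no weight, though the counts above include it.

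ADM rose with CPI203 in all 3 populations, by 1.21 in parental cells (SE 0.10, adjusted p = 1.81e-06), 0.58 in clone 1 (adjusted p = 0.00121) and 0.77 in clone 4 (adjusted p = 0.000177). SLC2A3 rose from 8.59 and 12 to 28.5 and 29.4 FPKM in parental cells, from 12.4 and 10.9 to 20.4 and 21.3 in clone 1 and from 10.9 and 16.8 to 25.9 and 18 in clone 4. NDRG1 rose in each too, from 48.3 and 51.5 to 86.0 and 86.7 FPKM in parental cells, and by 0.62 in clone 1 and 0.53 in clone 4. PFKFB4 fell in each, from 76.5 and 80.3 to 48.9 and 51.1 FPKM, by 1.13 in clone 1 (SE 0.10, adjusted p = 9.69e-06) and by 0.86 in clone 4 (adjusted p = 6.45e-05). The libraries of the compared groups did not overlap for PFKFB4 in any population. VEGFA fell in both clones by 0.48 (SE 0.11, adjusted p = 0.00714 and 0.00679), and in parental cells it was at 12.4 and 14.9 before and 12.7 and 14.3 FPKM after. PFKFB3 fell in parental cells from 43.4 and 48.9 to 24.6 and 25.0 FPKM (by 0.87, SE 0.12, adjusted p = 0.000163) and ANGPTL4 from 10.4 and 8.19 to 3.68 and 4.5. KDM3A rose there from 11 and 12.5 to 20.9 and 21.8 FPKM. Neither LDHA, PDK1, HK2, GAPDH nor CA9 passed in any population, and none of the 6 lower glycolytic enzymes did. Of 13 glycolysis genes outside the 40, 6 rose and 3 fell in parental cells, 4 and 2 in clone 1 and 3 and 2 in clone 4. PKM, the pyruvate kinase of most tissues, was among those that rose in all 3 populations, from 1250 and 1180 to 1530 and 1540 FPKM in parental cells. In clone 4 none of the 10 calls was left when only the compared libraries entered the fit, and the SLC2A3 and KDM3A values fell to 0.35 and 0.31 without its DMSO replicate 1 and to 0.39 and 0.35 without its CPI203 replicate 1. Without the 3 libraries that stand apart the counts were 17 rising and 5 falling in parental cells, 18 and 2 in clone 1, and 14 and 3 in clone 4. Among all genes that passed in clone 4 the share that rose was 37.5%, and 48.2% after quantile normalization.

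The effect of CPI203 differed between a clone and parental cells for few of the genes. For clone 1 the difference was positive for PFKFB3 (0.92, SE 0.18, adjusted p = 0.0171) and negative for ADM (-0.63, SE 0.14, adjusted p = 0.0407), where 1.39% and 0.52% of all genes passed. For clone 4 it was positive for PFKFB3 (1.17, SE 0.18, adjusted p = 0.00275) and P4HA2 (0.46, SE 0.11, adjusted p = 0.0394), where 1.59% and 0.697% passed. In the clones PFKFB3 was already low in DMSO, at 19.6 and 21.1 FPKM and 12.8 and 18.2, and was at 21.4 and 21.0 and at 19.3 and 19.0 with CPI203. P4HA2 was at 37.8 and 36.0 FPKM in parental DMSO cells and 24.0 and 24.4 with CPI203, against 17.0 and 16.7 and 14.8 and 16.0 in clone 4. The ADM and P4HA2 calls were each lost in several settings, and the PFKFB3 call of clone 1 without parental DMSO replicate 2, either CPI203 replicate of parental cells or clone 1, or clone 1 DMSO replicate 1. The PFKFB3 call of clone 4 was lost with only the compared libraries in the fit (adjusted p = 0.194).

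Other genes of the same pathways were taken from 5 further lists by pathway. Over all genes 17.1% were higher and 31% lower in untreated clone 1, and 20.7% and 30.4% in untreated clone 4. Of 26 other HIF target genes tested, 21 were higher and 1 lower in untreated clone 1 and 16 higher and 1 lower in untreated clone 4, with medians of 1.36 and 0.64. From untreated to DMSO 18 fell and 1 rose in clone 1, 19 fell and 2 rose in clone 4, and 4 fell and 3 rose in parental cells. Over all genes 12.9% fell and 30.3% rose in clone 1, 13% and 28.3% in clone 4, and 10.3% and 12.2% in parental cells. HILPDA, a lipid droplet protein, was at 9.31 and 9.82 FPKM in untreated parental cells, 167 and 160 in clone 1 and 49.3 and 47.2 in clone 4, and at 9.42 to 14.4 in the parental and clone DMSO libraries. LOXL2, a matrix cross-linking oxidase, was at 29.9 and 28.8 FPKM untreated in parental cells, 259 and 272 in clone 1 and 137 and 152 in clone 4. It kept much of its excess, at 78.3 and 82.0 and at 67.8 and 74.6 FPKM in clone DMSO cells against 19.9 and 23.9. P4HA1, a collagen prolyl hydroxylase, fell by 2.35 and by 1.65 in the clones from untreated to DMSO.

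Against those same shares of all genes in the untreated clones, 1 of 12 genes of the HIF machinery was higher and 2 lower in each clone. CITED2, a competitor of HIF for its coactivators, was at 3.31 and 2.61 FPKM in parental cells, 26.6 and 29.3 in clone 1 and 22.5 and 23.2 in clone 4. ARNT2, a partner of HIF alpha subunits in neural cells, was at 55.6 and 53.4 FPKM in parental cells, 7.17 and 7.06 in clone 1 and 5.99 and 6.12 in clone 4. Of 13 other glycolysis genes 4 were higher and 4 lower in clone 1 and 5 and 4 in clone 4, with PKM at 698 and 705 FPKM in parental cells, 2390 and 2310 in clone 1 and 2420 and 2520 in clone 4. Of 13 genes of pyruvate entry into mitochondria, 5 and 7 were higher and 4 and 4 lower. PDK4, which inhibits pyruvate dehydrogenase as PDK1 does, was at 19.9 and 20.2 FPKM in parental cells and lower in the clones, at 4.11 and 3.66 and at 2.73 and 2.67. Of 7 pentose phosphate genes 4 were higher and 1 lower in clone 1, and 3 and 1 in clone 4.

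In NOMO-1 cells the 40 genes made up 0.619% to 0.858% of summed FPKM, and 36 were tested. EGLN3, ANGPTL4, CA9 and CA12 stayed below 1 FPKM, with CA9 listed at 0 or practically 0 in all 8 libraries. EPAS1, ADM and ENO2 reached 1 FPKM in parental groups only, and entered the test through them. CPI203 was given for 24 h here and 6 h in A375, so the 2 lines are not compared. In parental NOMO-1 cells 14 members rose with CPI203 and 9 fell (63.9% either way), against 27% and 33% of all genes (60% either way). The either-way share was thus close to that of all genes. All 3 regulators tested rose, and 4 of 10 upper and 3 of 6 lower glycolytic enzymes fell. EPAS1 went from 1.35 and 1.91 to 12.5 and 13.3 FPKM (2.41, SE 0.12, adjusted p = 6.95e-07). HIF1A rose from 13.7 and 16.1 to 27.7 and 28.6 FPKM and EGLN1 from 8.91 and 10.9 to 20.9 and 19.1. The treated libraries of these 3 genes lay well above the DMSO libraries. ALDOC rose from 4.96 and 4.02 to 13.6 and 12.5 FPKM, by 1.36 (SE 0.11, adjusted p = 1.25e-05). BNIP3L rose from 22.9 and 22.9 to 53.4 and 46.7 FPKM. GPI fell from 197 and 183 to 97.3 and 99.6 FPKM (by 0.94, SE 0.08, adjusted p = 1.55e-05) and LDHA from 305 and 290 to 175 and 182.

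Tolerant NOMO-1 cells in DMSO had less of several glycolytic enzymes than parental cells. In them 6 members were higher and 18 lower (66.7% either way), against 28.2% and 36.2% of all genes (64.4% either way). The either-way share was thus close to that of all genes. In upper glycolysis 7 of 10 were lower and in lower glycolysis 5 of 6, with none higher. These counts include EPAS1, ADM and ENO2 among the lower genes, which entered the test through the parental libraries and so had to be lower. ENO2 was at 5.45 and 4.85 FPKM in parental cells and at 0.361 and 0.366 in tolerant cells. PFKL, the liver-type phosphofructokinase, was at 106 and 96.5 against 34.0 and 31.7 FPKM, lower by 1.59 (SE 0.10, adjusted p = 1.19e-06). TPI1 was at 204 and 156 FPKM in parental cells and 82.3 and 81.0 in tolerant cells. PFKFB4, at 5.09 and 4.99 against 2.16 and 2.16 FPKM, and BHLHE40, at 7.7 and 7.48 against 1.78 and 2.01, were lower as well. NDRG1 was higher in tolerant cells, at 82.8 and 77.7 against 34.9 and 33.6 FPKM (1.2, SE 0.10, adjusted p = 4.9e-06). SLC2A1, at 49.2 and 47.0 FPKM against 29.8 and 28.6, and PDK1, at 10.9 and 10.9 against 5.04 and 6.81, were also higher. GAPDH and LDHA did not pass, at 403 and 386 FPKM and at 273 and 272 in tolerant cells. ADM was at 5.17 and 3.23 FPKM in parental cells and below 0.15 in every tolerant library.

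**Figure D5:**
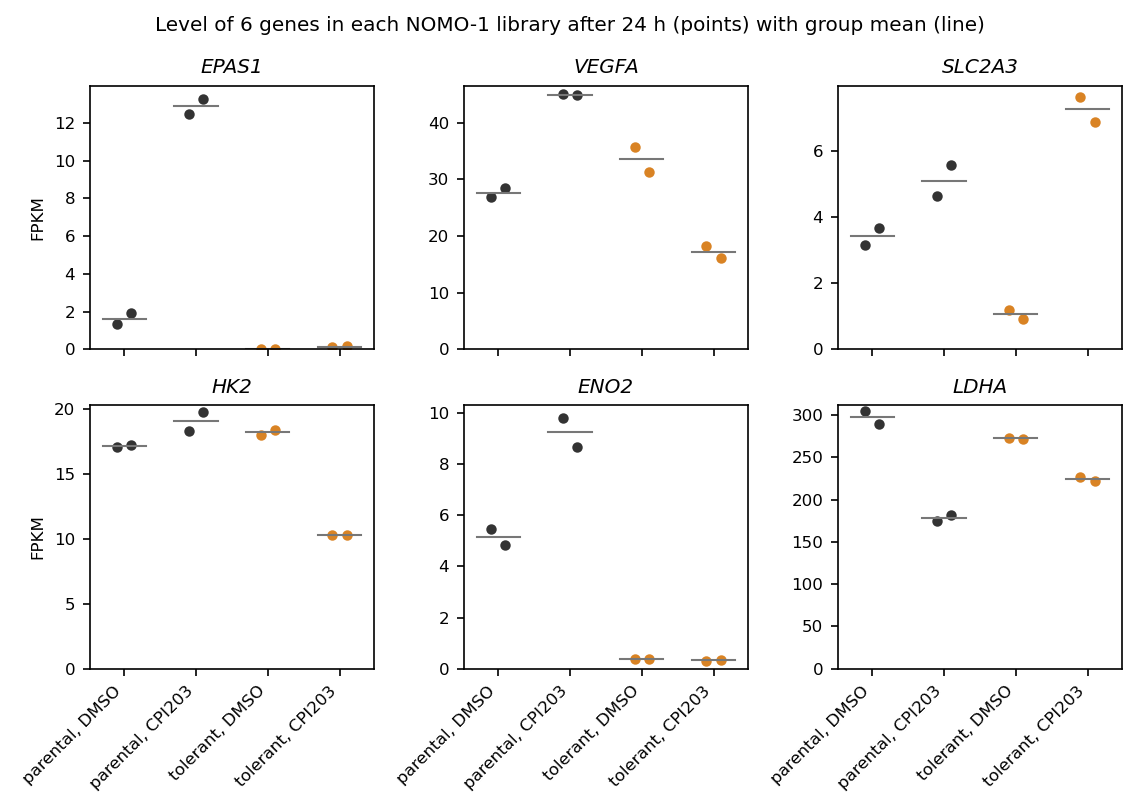
FPKM of 6 of the genes in each NOMO-1 library (points) with the group mean (line) after 24 h in DMSO or CPI203, for parental and tolerant cells, each axis starting at 0. EPAS1 rises to 12.5 and 13.3 with CPI203 in parental cells and is at most 0.152 in tolerant cells, VEGFA goes up in parental and down in tolerant cells, and ENO2 is under 0.4 in all tolerant libraries.

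In tolerant NOMO-1 cells CPI203 raised 7 members and lowered 10 (47.2% either way), against 18.4% and 20.7% of all genes (39.2% either way). SLC2A3 rose from 1.2 and 0.924 to 7.63 and 6.88 FPKM (2, SE 0.12, adjusted p = 4.55e-06), and BNIP3L from 20.6 and 22.6 to 43.1 and 43.4. VEGFA fell from 35.7 and 31.3 to 18.2 and 16.1 FPKM, HK2 from 18 and 18.4 to 10.3 and 10.3, and GPI from 141 and 131 to 98.4 and 88.7. The DMSO and CPI203 libraries did not overlap for any of these 5. BNIP3, at 4.44 and 4.44 before and 6.77 and 6.31 FPKM after, passed (0.47, adjusted p = 0.0114), and lost the call without replicate 1 or 2 of tolerant DMSO or replicate 1 of tolerant CPI203. Of the 17 calls, 8 were left without tolerant DMSO replicate 1, 9 without replicate 2 and 11 without tolerant CPI203 replicate 2.

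The NOMO-1 effect of CPI203 differed between tolerant and parental cells for 16 of the 36 genes, positively for 6 and negatively for 10, against 16.9% and 14.9% of all genes. EPAS1 and ENO2 are among the negative ones and entered the test through the parental libraries, so that their differences are given no weight. EGLN1 was at 10.3 and 11 FPKM in tolerant DMSO cells and 8.15 and 7.8 with CPI203, and its difference was -1.33 (SE 0.15, adjusted p = 0.000288). HIF1A was at 17.1 and 18.7 FPKM in tolerant DMSO cells and 20.2 and 21.1 with CPI203, and its difference was -0.68 (SE 0.13, adjusted p = 0.0049). VEGFA rose in parental cells from 26.8 and 28.5 to 45 and 44.8 FPKM and fell in tolerant cells, a difference of -1.61 (SE 0.13, adjusted p = 5.36e-05). HK2 was at 17.1 and 17.2 FPKM in parental DMSO cells and 18.3 and 19.8 with CPI203, and its difference was -0.90 (SE 0.11, adjusted p = 0.00046). ALDOC differed by -1.27 (SE 0.16, adjusted p = 0.00051), being near 1 FPKM in all tolerant libraries. SLC2A3 differed the other way, by 1.54 (SE 0.18, adjusted p = 0.000306), its parental values being 3.17 and 3.66 in DMSO and 4.64 and 5.57 with CPI203.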

How the data were processed

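RNA sequencing was done on total RNA of 26 libraries from A375 and NOMO-1 cells. Reads were processed with TopHat 1.4.1, Cufflinks and the hg19 build, per the submitters' processing notes; their options, the annotation and strandedness: not given in the sources used here. Deposited was a table that holds FPKM values computed by the authors for each gene and library. It has no counts, so depth is unknown and no counting interval is given. Of 43 rows for the 40 genes, 3 on alternate sequences listed at 0 were left out.

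limma 3.58.1 (R 4.3.3, trend and robust options, 1 mean per group) was run on log2(FPKM + 1), separately for 18 A375 libraries (16935 genes) and 8 NOMO-1 libraries (16753 genes), after dropping genes that did not reach 1 FPKM in 2 libraries. P-values are two-sided and adjusted by Benjamini-Hochberg over all genes tested, with a threshold of 0.05. The script was tested on simulated data. The genes and lists were chosen with earlier results of these data known. Values are always given for HIF1A, EPAS1, EGLN1, EGLN3, BNIP3, LDHA, CA9, VEGFA, SLC2A1, HK2, PDK1 and GAPDH in every A375 group, and per comparison for up to 6 genes with the largest change among those that passed at a mean of 5 FPKM or more in the higher group. Up to 2 genes per further list were taken by smallest adjusted p. Genes outside this rule were named after their values were seen. Alternatives covered pseudocount, filter, scaling, model options, replicate block, gene length and GC content, the compared libraries alone, and left-out libraries.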

Additional observations from a re-analysis of the deposited data

Results flagged for a closer look

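These values differed between populations by a direct test of the difference in limma. The change from untreated to 6 h of DMSO differed between clone 1 and parental A375 cells by -3.51 for NDRG1, -3.42 for BNIP3, -3.24 for ANGPTL4, -2.29 for ALDOA, -2.23 for PGK1 and -2.13 for LDHA on the log2 scale. For clone 4 the differences were -2.61 for NDRG1, -2.52 for BNIP3, -2.27 for ANGPTL4, -2.04 for LDHA, -1.83 for ALDOA and 2.08 for CA9. Both sets use the same parental libraries.

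The change with CPI203 against DMSO differed by -0.63 for ADM and 0.92 for PFKFB3 in clone 1, and by 0.46 for P4HA2 and 1.17 for PFKFB3 in clone 4. Between tolerant and parental NOMO-1 cells it differed by -2.27 for EPAS1, -1.61 for VEGFA, 1.54 for SLC2A3, -1.33 for EGLN1, -1.27 for ALDOC and -0.90 for HK2. EPAS1 was below 1 FPKM in every tolerant library and entered that test through the parental ones.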

How the results depend on the processing

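No result turned its direction under any alternative. Of 512 calls on single genes, 361 were kept in every alternative except a fold threshold. Counts of the genes that passed moved by over 1.5 times as follows; the cause was not tested.

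From untreated to DMSO in parental cells 24 genes passed, 7 with the compared libraries alone, and 10 to 23 with a library left out. From untreated to CPI203 in clone 4, 17 passed with the compared libraries alone. With the compared libraries alone, clone 4 against parental cells gave 9 in DMSO and 14 in CPI203, and clone 1 in CPI203 gave 31 (29 without the 3 libraries that stand apart). For CPI203 against DMSO, 9 passed in clone 1, 17 with the compared libraries alone, 16 with length and GC content as terms, 20 without the 3 libraries and 5 to 7 with 1 left out. In clone 4, 10 passed, and 0, 18, 17 and 6 to 14 in the same order. For the difference in that effect in clone 1, 2 passed, 1 with the compared libraries alone, 5 with length and GC, 8 without the 3 libraries, 4 after quantile normalization, 1 after median-ratio scaling, 1 with no filter and 0 to 1 with a library left out. In clone 4, 2 passed, 0 with the compared libraries alone, 5 with length and GC, 1 with pseudocount 0.1, 1 after quantile normalization, 1 with the replicate block and 1 to 3 with a library left out. In tolerant NOMO-1 cells with CPI203, 17 passed and 8 to 14 with a library left out.

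Asking also for a log2 change of 1 left, from untreated to DMSO, 4 in parental cells, 24 in clone 1 and 17 in clone 4, and from untreated to CPI203, 6, 22 and 12. Against parental cells it left 7 in clone 1 and 8 in clone 4 in DMSO, and 7 and 7 in CPI203. For CPI203 against DMSO it left 4, 1 and 0, and for the differences 14 (clone 4, untreated to DMSO), 0 and 1. In NOMO-1 it left 3 in parental and 1 in tolerant cells with CPI203, 9 between the lines and 5 for the difference.

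The replicate block lost 4 of the 512 calls. Same-numbered libraries deviated together in 10 of 36 pairs of A375 groups (r above 0.1, range -0.729 to 0.721) and in 4 of 6 of NOMO-1 groups (range 0.0184 to 0.386). Not every pair was above 0.1 in either line, so the numbers were not taken to pair the libraries, although all 6 NOMO-1 values were positive. Depth is unknown, and each group holds 2 libraries.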
